A study of Homo sapiens with 2 samples.

Results

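The mucins MUC1, MUC4, MUC5AC, MUC5B, MUC13, MUC16 and MUC20 and the trefoil factors TFF1, TFF2 and TFF3 were examined in TFK1 cells, an established human cholangiocarcinoma cell line, after knockdown of MBD2. The 10 genes were taken by symbol from the deposited tables of gene counts and of TPM (a level per gene that allows for gene length and library depth), and each had 1 row among 56638 genes. They comprised 5 membrane mucins, 2 gel-forming mucins and 3 trefoil factors.

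The cells carried either a short hairpin RNA against MBD2 (shMBD2) or a negative control hairpin (shNC), and the labels give no further treatment. By the study's methods, hairpins were cloned into plko.1 and delivered by lentivirus, carriers were selected with puromycin or G-418, and TFK1 was grown in RPMI medium with fetal bovine serum. The labels do not say which MBD2 hairpin was sequenced. Total RNA gave 1 library per group, so no difference has a replicate check, no test between the groups was possible, and both hairpin and library differ together between the groups.

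Mucins are large glycoproteins whose serine- and threonine-rich repeats carry dense O-linked sugars. Gel-forming mucins are secreted and assemble into the mucus of the airways, gut and bile ducts, membrane mucins stay anchored at the apical surface of epithelial cells, and trefoil factors are small disulfide-linked peptides secreted together with gel-forming mucins. MUC5AC is typical of the gastric surface and of mucus-producing biliary lesions. MBD2 binds methylated CG dinucleotides in DNA.

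Tandem repeats are what set mucins apart from other surface proteins, and a repeat unit of MUC1 and one of MUC4 is shown from the GENCODE 29 transcripts. Capitals mark serine and threonine codons, at which sugars can be attached. The MUC1 unit has 60 bases, or 20 codons, of which 5 encode serine or threonine, and it occurs in 19 exact in-frame copies in the longest MUC1 transcript. The MUC4 unit has 48 bases, or 16 codons, of which 8 encode serine or threonine, and it occurs in 14 exact in-frame copies in the longest MUC4 transcript. With up to 1 base in 5 allowed to differ, there are 43 copies of the MUC1 unit and 189 of the MUC4 unit.
MUC1 repeat unit: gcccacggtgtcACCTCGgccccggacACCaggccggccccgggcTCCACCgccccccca
MUC4 repeat unit: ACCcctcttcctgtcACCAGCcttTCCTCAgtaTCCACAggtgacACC

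Promoter windows of 300 bases, from 250 before to 50 after the start, were taken from RefSeq (GRCh38.p14) and were matched for MUC1, MUC4, MUC13 and MUC16. The windows of MUC1 and MUC13 are shown because both are membrane mucins and their CG content differs. Capitals mark CG dinucleotides. MUC1 had 2 overlapping windows with 13 CG dinucleotides each, and the one on the minus strand at chr1:155192860-155193159 is shown. The MUC13 window, on the minus strand at chr3:124934702-124935001, holds 5. It lies inside the GENCODE 29 gene at chr3:124905442-124953819 and not at the start of that gene.
MUC1 promoter: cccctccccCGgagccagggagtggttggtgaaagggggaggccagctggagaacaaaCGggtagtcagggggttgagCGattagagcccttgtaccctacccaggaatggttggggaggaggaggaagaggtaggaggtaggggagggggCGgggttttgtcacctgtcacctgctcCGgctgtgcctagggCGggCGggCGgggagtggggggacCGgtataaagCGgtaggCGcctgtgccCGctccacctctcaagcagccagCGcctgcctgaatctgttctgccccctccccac
MUC13 promoter: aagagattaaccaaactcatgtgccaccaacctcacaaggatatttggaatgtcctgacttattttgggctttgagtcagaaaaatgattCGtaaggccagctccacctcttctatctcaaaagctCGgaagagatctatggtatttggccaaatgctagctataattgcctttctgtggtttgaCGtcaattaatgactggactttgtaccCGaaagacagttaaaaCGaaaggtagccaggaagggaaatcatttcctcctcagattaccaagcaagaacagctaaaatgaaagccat

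The median over 35116 RefSeq windows was 14 CG dinucleotides. MUC4 had 12 in its window, and MUC16 had 7 and 8 in its 2 windows, so each window of these mucins lay below that median. MUC1 with 13 was close to it. The MUC16 windows, at chr19:9010360-9010659 and chr19:9065702-9066001 on the minus strand, lie outside the GENCODE 29 gene at chr19:8848844-8981342. The letters TATAAA, searched on both strands, were found in both MUC1 windows and in 11.5% of all windows, and not in those of MUC4, MUC13 or MUC16. A match of these letters is a description of the sequence. DNA methylation was not measured in these libraries.

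The libraries held 14728814 counts in shMBD2 and 14467406 in shNC. MBD2 itself had 365 counts in shMBD2 and 1013 in shNC, a log2FC of -1.48 (95% counting interval -1.66 to -1.31), or 35.8% of the shNC level. Log2FC is shMBD2 over shNC after TMM scaling with a prior of 0.5 counts, and each interval (exact, Clopper-Pearson) comes from how the reads of a gene were divided between the libraries and covers counting error only. Biliary keratins were abundant, with KRT8 at 3006 and 3890 TPM and KRT7 at 1160 and 1327 TPM in shMBD2 and shNC. KRT19, another bile duct keratin, stood at only 15.0 and 9.04 TPM. All 7 genes of the biliary list were detected with at least 10 counts.

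A minimum of 10 counts, both libraries added, was met by 8 of the 10 genes and by 17545 genes in all. None of the 8 had a log2FC above 1, against 5.48% of all 17545 genes, and 1 had a log2FC below -1, against 5.07% of all genes. That gene was MUC5AC. The log2FC was positive for 5 of the 8 and negative for 3, with a median of 0.18 against -0.01 over all genes. The interval left out 0 for 5 of them. The share of all genes whose interval leaves out 0 was not computed, so this count has no background to stand against. With the minimum raised to 100 counts, 5 members remained and their median was -0.19, so the sign of the median depends on the genes with few counts.

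**Figure D1:**
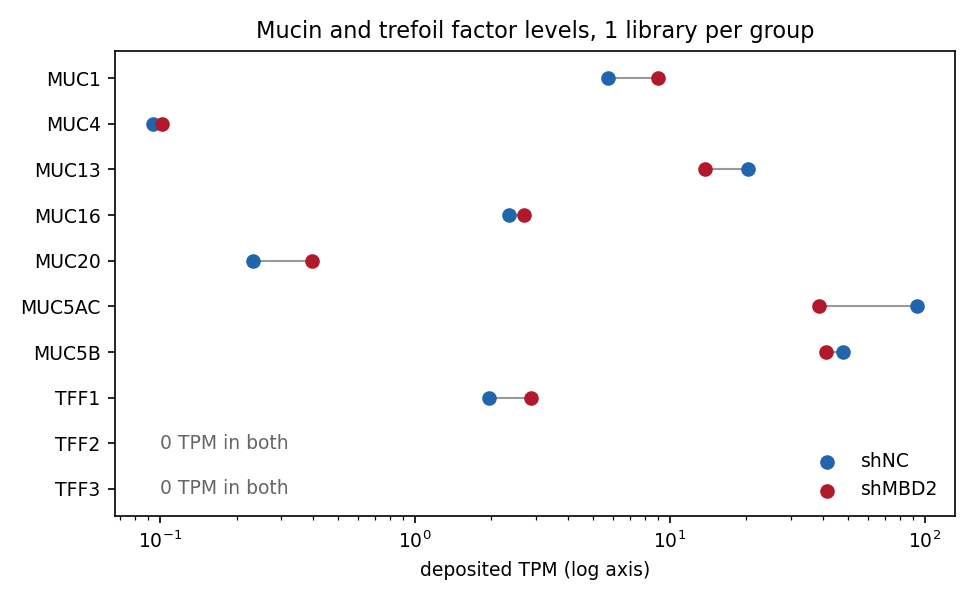
Deposited TPM of each of the 10 genes in shNC (blue) and shMBD2 (red) on a log axis, with 1 library per group and a grey line joining the values of a gene. MUC5AC moves from 93.0 TPM in shNC to 38.4 in shMBD2, while TFF2 and TFF3 are listed at 0 in both.

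Gel-forming mucins made up most of the measured mucin and trefoil RNA. Summed over the 10 genes, the level was 108 TPM in shMBD2 and 172 TPM in shNC. MUC5AC and MUC5B together gave 79.6 TPM in shMBD2 and 141 TPM in shNC, or 73.5% and 82.2% of these sums. With the same counts and the longest GENCODE 29 transcript of each gene as its length, the shares come to 67.5% and 71.6%. Where a gene was counted on a shorter model, as for MUC5AC and MUC1, reads may be missing from these shares. The 5 membrane mucins summed to 25.9 and 28.6 TPM, a smaller difference than that of the gel-forming pair. In a culture, fewer cells that express a gene and less RNA per cell cannot be told apart.

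MUC5AC, the secreted mucin of the gastric surface and airway goblet cells, had 880 counts in shMBD2 and 2080 in shNC. Its level was 38.4 TPM in shMBD2 and 93.0 TPM in shNC, and after scaling shMBD2 stood at 42.0% of shNC. The log2FC was -1.25 (interval -1.37 to -1.14), so the whole interval lies below -1. Of 3488 well-counted genes (1000 counts or more in the library where the gene was higher), 0.545% had a log2FC below -1 and 1.38% one above 1. MUC5AC ranked 11th from the lowest of these, and 595th from the lowest of all 17545 genes. MUC5AC entered the well-counted set through its 2080 counts in shNC only, with 880 in shMBD2, so the 11th place is descriptive. Its deposited TPM stood at the 89.6th percentile of genes with at least 10 counts in shNC and at the 73.3rd in shMBD2. These percentiles rest on a gene length of 4012 bases. The same counts over the longest GENCODE 29 MUC5AC transcript give 21.4 in shNC and 8.82 in shMBD2. These may be too low, since reads outside the shorter model may not have been counted. The median deposited TPM of such genes was 15.9 in shNC and 15.6 in shMBD2.

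MUC5B, the second gel-forming mucin and a main component of airway and biliary mucus, had 4223 counts in shMBD2 and 4800 in shNC. The levels were 41.2 and 48.1 TPM. The log2FC was -0.19 (interval -0.25 to -0.13), which leaves out 0 but is far from -1, and shMBD2 stood at 87.4% of shNC. By deposited TPM, the MUC5AC level was 1.94 times that of MUC5B in shNC and 0.931 times in shMBD2. This order rests on the length of 4012 bases behind the MUC5AC values. The same counts over the 17448 bases of the longest GENCODE 29 MUC5AC transcript give 0.445 times MUC5B in shNC and 0.214 times in shMBD2. Those counts came from the shorter gene model, so reads from the rest of the transcript may be missing. These ratios may therefore be too low, and the order of MUC5AC and MUC5B is not settled. The difference between their log2FCs, which depends neither on length nor on how the libraries are scaled, was -1.06 (interval -1.19 to -0.93).

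**Figure D2:**
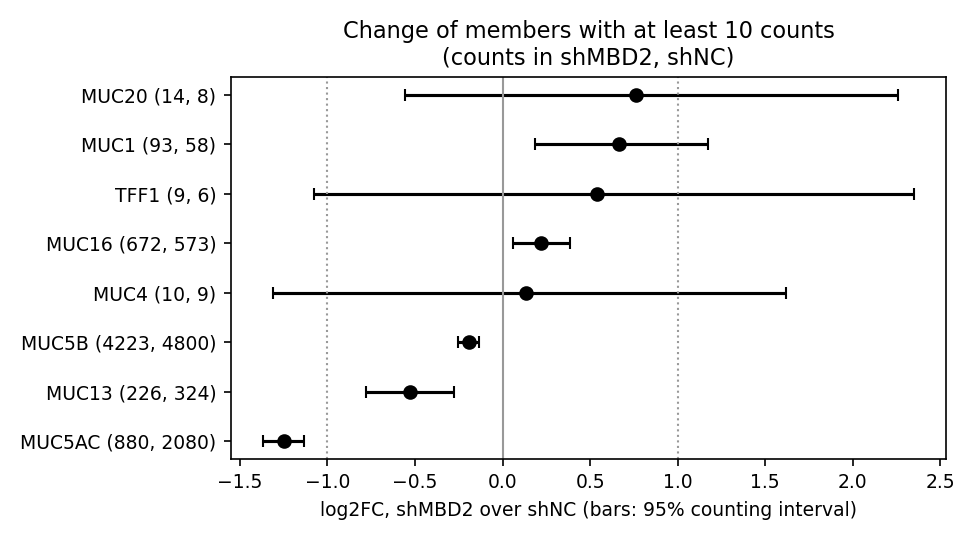
Log2FC of shMBD2 over shNC for the 8 genes with at least 10 counts, with bars for the 95% counting interval and the counts in shMBD2 and shNC in parentheses. The interval of MUC5AC lies wholly below -1 and those of MUC13 and MUC5B below 0, while those of MUC20, TFF1 and MUC4 cover both signs.

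MUC13, a membrane mucin of the intestinal and biliary surface, had 226 counts in shMBD2 and 324 in shNC. It was the most abundant membrane mucin per length, at 13.7 TPM in shMBD2 and 20.2 TPM in shNC. The log2FC was -0.53 (interval -0.78 to -0.28), or 69.3% of shNC. Of the 5 membrane mucins it alone had a negative log2FC, and among the 4 with positive values the intervals of 2, MUC1 and MUC16, left out 0.

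MUC1, a membrane mucin found on most glandular epithelia and a carrier of tumor-associated antigens, had 93 counts in shMBD2 and 58 in shNC. The levels were 8.98 and 5.75 TPM. The log2FC was 0.67 (interval 0.18 to 1.17), which leaves out 0 and reaches past 1. MUC1 and MUC13 thus lay on opposite sides of 0, and the difference between their log2FCs was 1.20 (interval 0.65 to 1.76). The MUC1 level was 0.653 times that of MUC13 in shMBD2 and 0.284 times in shNC. The same counts over the longest GENCODE 29 transcripts give 0.284 and 0.124 times. These may be too low if MUC1 reads outside the 1811 bases behind its TPM were not counted.

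MUC16, the very long membrane mucin that carries the CA125 antigen, had 672 counts in shMBD2 and 573 in shNC. Its many counts came from a long gene, and per length its levels were only 2.68 and 2.35 TPM. The log2FC was 0.22 (interval 0.06 to 0.38), or 117% of shNC. Against MUC13 its log2FC was higher by 0.75 (interval 0.45 to 1.05), and against MUC5B by 0.41 (interval 0.24 to 0.59). MUC1 and MUC16 differed in log2FC by 0.45, with an interval of -0.07 to 0.98 that covers 0.

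MUC4 and MUC20, neighbouring membrane mucin genes on 3q29, were near the detection limit. MUC4, a partner of the receptor ERBB2, had 10 counts in shMBD2 and 9 in shNC, at 0.102 and 0.0944 TPM. MUC20, which binds the receptor MET, had 14 and 8 counts, at 0.395 and 0.232 TPM. Their log2FCs were 0.14 (interval -1.31 to 1.62) and 0.76 (interval -0.55 to 2.26). Both intervals hold 0, 1 and values below 0, so no direction can be read at this depth. MUC20 also overlaps LINC00969 on the same strand, which had 265 and 308 counts, and reads of these genes could have been divided between them in counting. Genes that overlap MUC1 and MUC5B had 0 counts in both libraries.

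The trefoil factors were scarce. TFF1, the trefoil peptide of the gastric surface, had 9 counts in shMBD2 and 6 in shNC, and its level was 2.86 and 1.95 TPM. The log2FC was 0.54 (interval -1.08 to 2.35), which gives no direction. TFF2, the gastric gland trefoil peptide, and TFF3, the intestinal goblet cell trefoil peptide, had 0 counts in both libraries. A count of 0 allows up to 3 counts, or 0.205 CPM (counts scaled to library size) in shMBD2 and 0.206 CPM in shNC. The gel-forming mucins and the trefoil factors were therefore detected at very different levels.

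**Figure D3:**
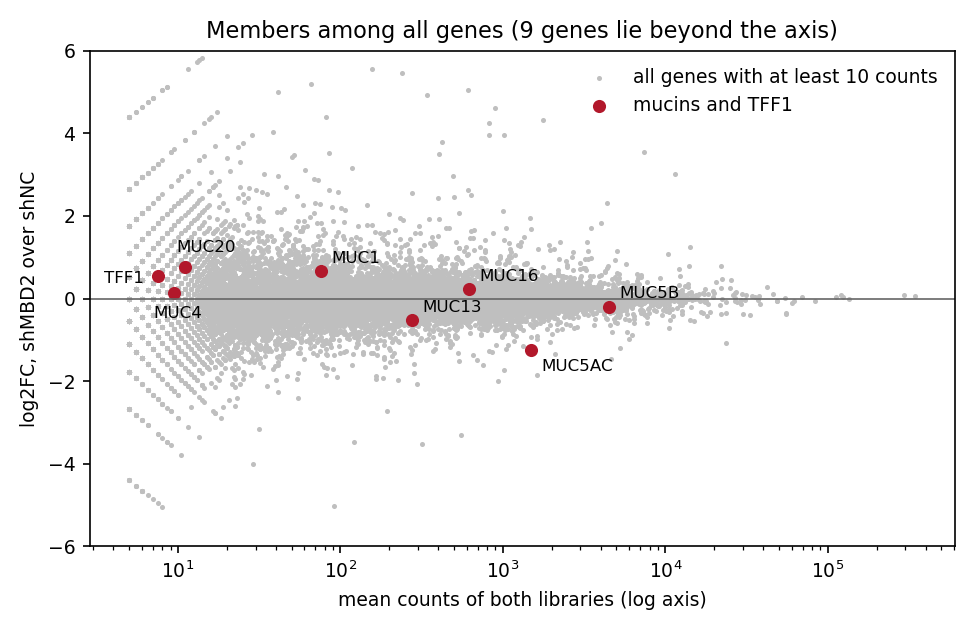
Log2FC against the mean count of both libraries (log axis) for the genes with at least 10 counts, in grey, with the 8 members in red and 9 genes beyond the axis. MUC5AC lies below most genes of similar count, while MUC4, MUC20 and TFF1 lie where low counts spread the values of all genes.

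The deposited positions place MUC5AC at chr11:1151580-1222364 and MUC5B at chr11:1244296-1283406, both on the plus strand, and MUC1 at chr1:155158300-155162707 on the minus strand. MUC4 lies at chr3:195473636-195539148 on the minus strand and MUC20 beside it at chr3:195447753-195467994 on the plus strand. MUC13 is at chr3:124624289-124672663 and MUC16 at chr19:8959520-9092018, both on the minus strand. The trefoil genes share the minus strand of chromosome 21, with TFF3 at chr21:43731777-43735761, TFF2 at chr21:43766466-43771237 and TFF1 at chr21:43782391-43786703. The tables name no build. All 10 starts differ from those of GENCODE 29 on GRCh38, although the submitters' processing notes name GRCh38.p13. For MUC1, GENCODE 29 gives chr1:155185824-155192916. The deposited positions therefore cannot be set beside the GRCh38.p14 promoter windows above.

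The ratio of counts to TPM gives the gene length used for each level. For MUC4, MUC16 and TFF1 it was 17110, 43816 and 551 bases, as in the longest GENCODE 29 transcript of each. For MUC5AC it was 4012 bases against 17448 in the longest MUC5AC transcript, so the counts of MUC5AC came from a gene model shorter than that transcript. For MUC1 it was 1811 bases, the length of a MUC1 transcript that holds 1 exact copy of the repeat unit, against 4170 in the longest one with its 19 copies. For MUC20 it was 6193 bases against 2842. A shorter or longer model applies to both libraries alike, and it bears on levels set between genes, such as MUC5AC beside MUC5B.

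In the 11p15 mucin cluster, the 4 mucin genes lay on different sides of 0, with MUC2 above 1 and MUC5AC and MUC6 below -1. MUC2, the main intestinal gel-forming mucin, had 46 counts in shMBD2 and 8 in shNC, with a log2FC of 2.44 (interval 1.42 to 3.81). MUC6, the gastric gland mucin, had 10 and 29 counts, with a log2FC of -1.50 (interval -2.75 to -0.47). MUC2 and MUC6 were both under 1 TPM in both libraries, far below MUC5AC and MUC5B. The neighbours AP2A2, CHID1, TOLLIP and BRSK2 had log2FCs of 0.01, 0.15, -0.06 and 0.31.

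**Figure D4:**
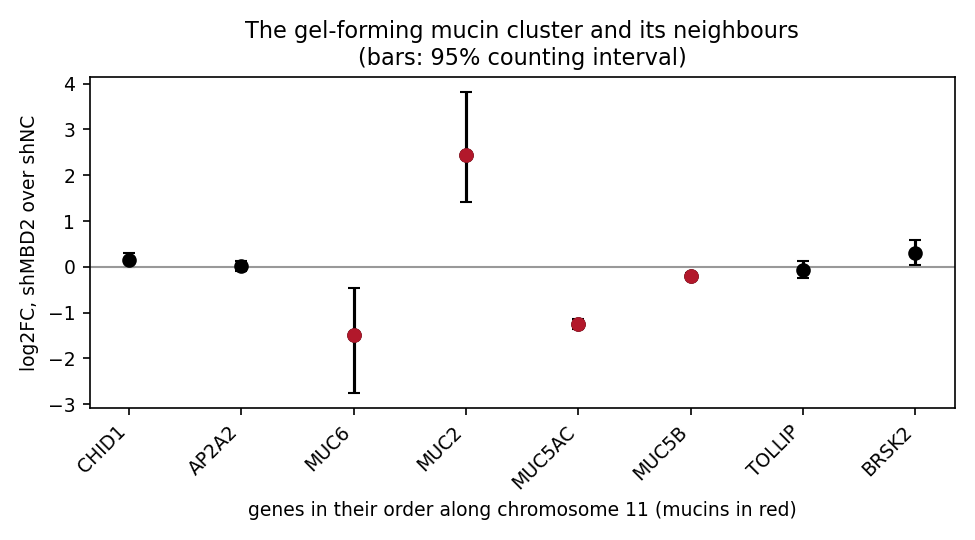
Log2FC of the genes of the 11p15 mucin cluster in their order along chromosome 11, mucins in red, with bars for the 95% counting interval. MUC2 is above 1, MUC5AC and MUC6 are below -1, and MUC5B and the 4 non-mucin genes are between -0.19 and 0.31.

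At the other loci, 0 of the 7 tested genes around MUC4 and MUC20 on 3q29 and 0 of the 4 tested genes around the trefoil cluster on 21q22 had a log2FC past 1 or -1. Among 8 genes around MUC1, 1 did. This was EFNA1, an ephrin ligand, with 594 counts in shMBD2 and 207 in shNC and a log2FC of 1.51 (interval 1.28 to 1.75). Over all tested genes, 5.48% had a log2FC above 1 and 5.07% one below -1. With a minimum of 100 counts, the genes above 1 fell from 961 to 213 and those below -1 from 890 to 127. These shares thus include many genes with fewer counts than EFNA1. Whether the loci stand apart was not tested.

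Of 17 further mucins and mucin-like genes, 15 were found by symbol and 7 had at least 10 counts. MUC2 was the 1 gene above 1 and MUC6 the 1 below -1, against 5.48% and 5.07% of all tested genes. Each of these 2 had under 100 counts over both libraries. CD164, a widely expressed sialomucin, was the most abundant at 121 and 118 TPM, with a log2FC of 0.06 (interval -0.01 to 0.13). MCAM had 100 and 83 counts, OVGP1 22 and 20, MUC3A 8 and 16, and MUC12 7 and 7, and the intervals of these 4 hold 0. MUC17, MUC19 and MUC22 had at most 3 counts in a library, and MUC7, MUC15, MUC21, MUCL1 and EMCN had 0 in both. MUC3B and MUCL3 were not matched, and MUC3A has a near-identical copy, so its counts are uncertain.

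Genes of mucus assembly and secretion included 3 of 17 below -1 and 1 above 1, against 5.07% and 5.48% of all tested genes, with a median log2FC of -0.27. AGR2, the protein disulfide isomerase needed to fold gel-forming mucins, had 1199 counts in shMBD2 and 3011 in shNC and a log2FC of -1.34 (interval -1.44 to -1.24). FCGBP, a mucus protein that binds to mucin gels, had 143 and 425 counts, with a log2FC of -1.58 (interval -1.86 to -1.30). BCAS1 had 68 and 263 counts, with a log2FC of -1.95 (interval -2.37 to -1.57). The gene above 1 was ZG16B, with 11 and 3 counts.

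Among transcription factors linked to mucin and trefoil genes, 2 of 21 were above 1 and 2 below -1, against 5.48% and 5.07% of all tested genes, with a median of -0.18. SPDEF, a factor of goblet cell differentiation, had 90 counts in shMBD2 and 284 in shNC and a log2FC of -1.66 (interval -2.03 to -1.32). HNF4A, a factor of liver and gut epithelium, had 309 and 631 counts and a log2FC of -1.04 (interval -1.24 to -0.84). EHF, an epithelial ETS factor, had 517 and 214 counts and a log2FC of 1.26 (interval 1.03 to 1.50). CREB3L1, with 13 and 2 counts, was the other gene above 1.

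**Figure D5:**
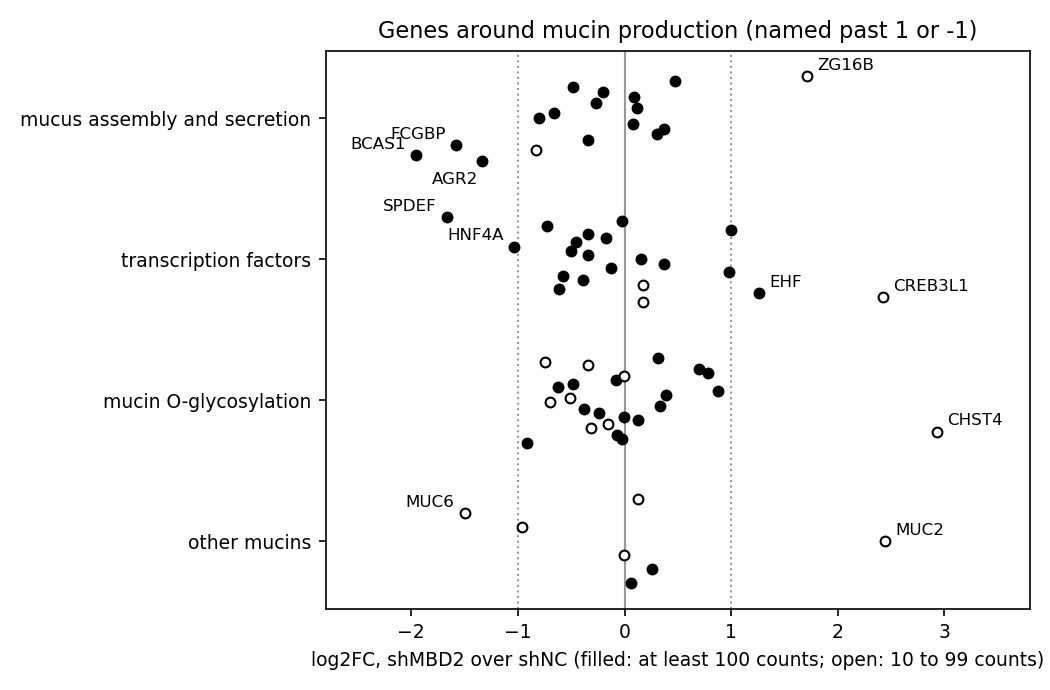
Log2FC of the tested genes of 4 lists, filled where a gene had at least 100 counts over both libraries and open where it had 10 to 99, with genes past 1 or -1 named. Most genes of each list lie between the dotted lines at -1 and 1.

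Enzymes that build mucin O-glycans had 1 of 24 above 1, CHST4 with 11 and 1 counts, and 0 below -1, with a median of -0.08. Among partners of membrane mucins, 2 of 17 were above 1 and 0 below -1, with a median of -0.13. Both lists stand against 5.48% above 1 and 5.07% below -1 over all tested genes. ICAM1, an adhesion molecule that binds MUC1, had 187 counts in shMBD2 and 0 in shNC, at least 62.0-fold higher against 3 counts in shNC. MSLN, the partner of MUC16, had 21 and 8 counts and a log2FC of 1.33 (interval 0.15 to 2.77). The receptors that pair with MUC4 and MUC20 stayed within the lines, with ERBB2 at a log2FC of -0.28 and MET at 0.27. ZG16B, CREB3L1, CHST4, MSLN, ERBB2, MET, KRT7, KRT8, KRT19, the non-mucin genes of 11p15 and the markers of other cell types apart from COL1A1 and FCGBP were named after their values were seen. None of 7 named antisense and pseudogene partners was found by symbol.

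Markers of other cell types were mixed. Of the intestinal goblet list, 4 of 6 genes were at 0 in both libraries and MUC2 and FCGBP were the 2 detected. Of the gastric surface list, which holds MUC5AC, TFF1 and TFF2, the summed level was 41.7 TPM in shMBD2 and 95.3 TPM in shNC, nearly all of it MUC5AC. Its 4 other genes all had under 10 counts, and GKN2 and CTSE were at 0. Among leukocyte genes CD52 and CD3E had 0 counts in both libraries, PTPRC and TYROBP had 0 in shMBD2 and 1 in shNC, and the summed level of the 7 genes was 16.8 TPM in shMBD2 and 13.1 in shNC, mostly CD14 with 152 and 126 counts. The median gene with at least 10 counts in a library stood at 15.6 and 15.9 TPM. LAPTM5 had 29 counts in shMBD2 and 3 in shNC. It was the 1 of the 2 tested leukocyte genes above 1, against 5.48% of all tested genes. Of 6 fibroblast genes COL1A1 had 308 and 124 counts with a log2FC of 1.30, and COL1A2 and DCN had at most 1 count, with sums of 8.42 and 3.98 TPM. Endothelial genes had 0 of 4 tested. The hepatocyte list had 1 of 4 tested, CYP3A4 with 6 counts in each library, and the squamous list 1 of 5, TP63 with 35 and 61 counts. Whether any of these bear on the mucin values was not tested.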

How the data were processed

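Total RNA of 2 libraries of TFK1 cells, 1 with an MBD2 hairpin and 1 with the control hairpin, had been sequenced by the authors. They deposited whole-number read counts per gene, without normalization, and a table of TPM, which is treated here as a signal because the deposited columns sum to 1122241 and 1129779 over all rows, above 1000000. Per the labels, the submitters' processing notes name fastp, HISAT2 2.1.0, featureCounts, DESeq 1.18.1 and the build GRCh38.p13. Whether counting used strand is not given in the sources used here.

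Of 63723 lines, 46 without a gene were dropped, and 1 row was kept per symbol and value, which left 56638 genes and a TPM sum of 1000000 per library. Counts were scaled with TMM factors of edgeR 4.0.16 in R 4.3.3. Genes with at least 10 counts over both libraries were used. For log2FC, 0.5 counts were added to each library in proportion to its size. Intervals (95%, exact Clopper-Pearson, scipy 1.17.1) cover counting error only, as each group had 1 library. They treat reads as independent molecules, which PCR copies are not, so they may be too narrow. The floor was 3 counts. The scripts were tested on simulated data. Lengths behind TPM were computed on 796 genes with 1 transcript, of which 83.2% came within 5% of their GENCODE 29 length. Promoter windows are RefSeq (GRCh38.p14).

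All 10 members, MBD2 and the other mucins found are named. From each other list, genes with at least 100 counts and a log2FC past 1 or -1 are named, at most 4 per list by size, and genes outside this rule are marked as such. The members and lists were chosen with earlier results of these data known. The alternatives were DESeq2 1.42.0 size factors, total counts, upper-quartile factors, log2 of TPM plus 0.1 or 1, a prior of 2 counts, and minimums of 1 and 100 counts. Levels from the same counts at the length of the longest GENCODE 29 transcript were added after seeing the data.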

Additional observations from a re-analysis of the deposited data

How the results depend on the processing

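Under 8 alternative settings of scaling, pseudocount, prior count and minimum count, 0 members were above 1 and 1, MUC5AC, was below -1. The log2FC of MUC5AC ranged from -1.28 to -1.24, that of MUC5B from -0.22 to -0.18, of MUC13 from -0.55 to -0.52, of MUC16 from 0.14 to 0.23 and of MUC1 from 0.57 to 0.68. MUC20, MUC4 and TFF1 ranged from 0.18 to 0.77, from 0.01 to 0.14 and from 0.38 to 0.55. The median of the members was 0.18, between -0.19 and 0.19 over the settings, and turned negative with a minimum of 100 counts, which left 5 members. The counts of all genes above 1 and below -1, 961 and 890, became 4523 and 4303 with at least 1 count, 213 and 127 with at least 100 counts, and 374 and 340 with log2 of TPM plus 1. With the longest GENCODE 29 transcript as length, an alternative chosen after seeing the data, the TPM ratio of MUC5AC to MUC5B went from 0.931 to 0.214 in shMBD2 and from 1.94 to 0.445 in shNC, and that of MUC1 to MUC13 from 0.653 to 0.284 and from 0.284 to 0.124. That alternative kept the deposited counts, so reads outside a gene model shorter than the transcript may be missing from it. The median over all genes stayed between -0.03 and 0.00.

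No paired analysis was possible because each group had 1 library, and for the same reason leaving out a replicate was not possible. Depth limits MUC4, MUC20 and TFF1, whose intervals hold both signs, and TFF2 and TFF3, which were not detected.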

Other observations

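Among the enzymes of mucin O-glycosylation, all tested genes other than CHST4 were between -1 and 1, yet some of the intervals left out 0. These genes were named after their values were seen. ST3GAL1 and ST3GAL4, which add sialic acid to galactose, had 853 and 409 counts in shMBD2 and 491 and 251 in shNC, with log2FCs of 0.79 (interval 0.63 to 0.95) and 0.69 (interval 0.47 to 0.93). GALNT6, one of the enzymes that start O-glycans, had 185 and 100 counts and a log2FC of 0.88 (interval 0.52 to 1.24). B3GNT3 and GALNT7 had negative values, at -0.91 (interval -1.26 to -0.57) and -0.62 (interval -0.75 to -0.50). The summed level of the list was 765 TPM in shMBD2 and 764 in shNC.

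The length behind the TPM was 8637 bases for MUC2 against 12667 in its longest GENCODE 29 transcript and 4238 against 11226 for MUC3A, while for MUC6 it was 8006, the same as the transcript.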
